A study of Mus musculus with 10 samples.

Results

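The genes described are 30 that carry glucose through the heart muscle cell: the transporters and hexokinases that bring it in, the enzymes of glycolysis and their regulators, the gate from pyruvate to the mitochondria, and the enzymes that build and break down glycogen. They were chosen by name, with earlier results of these data known. All 30 were measured, among 22016 genes or transcripts tested, through 46 probes on the array. The arrays compared ventricle RNA of male mice given aldosterone for 7 days, with 5 hearts, and of untreated mice, also with 5 hearts, each labelled as a separate mouse. The titles call the mice of both groups Ctrl, a term the labels do not explain, and give no strain, age, dose or allele. RNA of each heart, labelled with Cy5, was hybridised together with a reference labelled with Cy3 and pooled from liver, brain, heart, kidney and spleen, so each value is a log2 ratio of heart over pool. Scanner files of 9 arrays were used, of aldosterone hearts 1, 2, 3 and 5 and untreated hearts 1 to 5, and the authors' deposited value table of all 10 hearts, which adds aldosterone heart 4.

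Glucose enters cardiomyocytes through the constitutive transporter GLUT1 and the insulin-responsive transporter GLUT4, and hexokinase traps it as glucose 6-phosphate. From there it is stored as glycogen or passes down glycolysis, where phosphofructokinase is the main point of control and is stimulated by fructose 2,6-bisphosphate, the product of the bifunctional PFKFB enzymes. Pyruvate, the end of the path, is reduced to lactate or oxidised by the pyruvate dehydrogenase complex, which PDK kinases switch off. The adult heart draws most of its energy from fatty acids and shifts towards glucose under load. Aldosterone acts through the mineralocorticoid receptor, and the series was set up to find genes of the heart that respond to it.

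Cy5 signal was well above background for 64.3% to 70.9% of 39429 probes on each array. Of 10 cardiomyocyte markers, 7 had a saturated Cy5 spot on all 9 arrays and Ttn on 5, so their ratios do not measure how hearts differ in these genes. The other two, Ryr2 and Pln, lay above the pool in every heart, at 1.35 to 2.82 and 2.06 to 3.20. The mean of 5 atrial markers lay between -3.04 and -2.60, with Nppa saturated on 4 arrays. Aldosterone and untreated arrays shared each of 4 slides. The groups occupied different positions on the slides, and the effect of position cannot be told apart from that of treatment. In an earlier analysis of these arrays the expression values split the hearts into sets that cross the treatment groups. Set 1 holds aldosterone hearts 3 and 5 and untreated hearts 1, 3 and 4. Set 2 holds aldosterone hearts 1 and 2 and untreated hearts 2 and 5, with aldosterone heart 4 in the value table.

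With loess, muscle forms of the pathway such as Pfkm and Pgam2 lay above the pooled organs in every heart. So did the liver form Pfkl and the brain form Pygb, while the widely expressed enolase Eno1 lay below. For 5 of the 30 genes (Aldoa, Gapdh, Eno3, Ldha and Ldhb) the Cy5 spot of the probe used was saturated on all 9 arrays, so their true ratio was not measured there. Of the other 25, 18 were above the pool in all 9 hearts, 4 were below it in all 9, and 3 (Hk1, Pfkfb1 and Pfkfb3) lay on both sides. Among all genes, 39.1% were above the pool in all 9 hearts and 36.1% below. The 18 stayed above under every scaling tried, whereas the 4 below (Slc2a1, Pfkp, Pgam1 and Eno1) lay on both sides when arrays were centred on their median instead of normalised by loess. Ratios are compared with the pool, which itself contains heart, and not between genes. Their zero depends on the scaling, since the median ratio over all genes was 0.05 with loess, 0.42 with the scanner's processed signals and 0.48 with median centring.

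Slc2a4, which encodes GLUT4, had ratios of 2.57, 2.73, 2.49 and 2.51 in aldosterone hearts, against 2.44, 2.63, 2.32, 2.64 and 2.71 in untreated hearts. The untreated mean was 5.85-fold over the pool with loess and 12.3-fold with median centring. Slc2a1, which encodes GLUT1, had -1.14, -1.40, -0.98 and -1.01 in aldosterone hearts, against -1.02, -1.10, -0.84, -1.03 and -1.18 in untreated hearts, and its untreated mean was 2.05-fold under the pool with loess and level with it, at 0.02, with median centring. The groups overlapped for both transporters. The muscle phosphofructokinase Pfkm averaged 1.72 ± 0.17 in aldosterone hearts and 1.77 ± 0.19 in untreated hearts (SD, n = 4 and 5). The liver form Pfkl averaged 0.71 ± 0.30 in aldosterone hearts and 0.91 ± 0.19 in untreated hearts, and the platelet form Pfkp, given in full below, lay under the pool in every heart. For phosphoglycerate mutase, the muscle form Pgam2 averaged 1.91 ± 0.12 in aldosterone hearts and 1.88 ± 0.16 in untreated hearts, and the brain form Pgam1 -1.12 ± 0.20 in aldosterone hearts and -1.22 ± 0.28 in untreated hearts. At this step, with loess, the muscle isoform thus stood above the pool and the other isoform below it, in both groups. Eno1, the widely expressed enolase, averaged -1.02 ± 0.10 in aldosterone hearts and -1.05 ± 0.15 in untreated hearts. Hk2, the insulin-regulated hexokinase of muscle, averaged 2.21 ± 0.29 in aldosterone hearts and 2.11 ± 0.28 in untreated hearts. Hk1, the general one, averaged 0.17 ± 0.24 in aldosterone hearts and 0.06 ± 0.22 in untreated hearts.

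**Figure D1:**
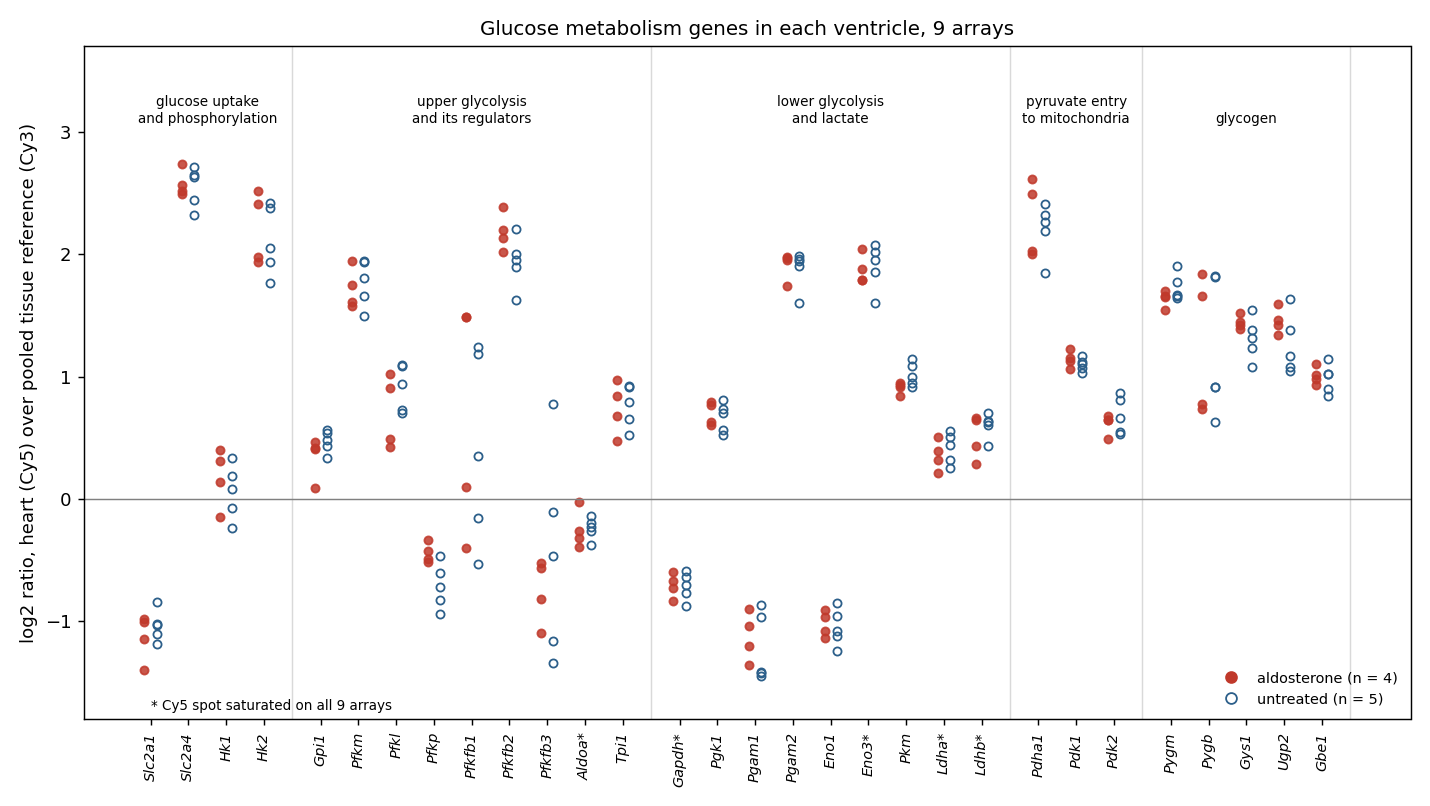
Log2 ratio of heart over pooled reference for each of the 30 genes, grouped by role, with 1 point per heart: filled red for aldosterone (n = 4) and open blue for untreated (n = 5). The groups overlap for every gene, and Pfkfb1 and Pygb fall into a high and a low cluster inside both groups. Genes with an asterisk had a saturated Cy5 spot on all 9 arrays.

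None of the 30 genes differed between aldosterone and untreated hearts by limma after Benjamini-Hochberg adjustment over all genes. The smallest adjusted p among them was 0.67, and the fit called 0 of all 22016 genes (0%). At an unadjusted p under 0.05 it picked 2 of the 30, Pfkp and Pfkfb2, close to the share of 6.2% over all genes. In the value table of 10 hearts, 0 of 30 were called, where the share of all genes was 0.168%, and the same 2 had an unadjusted p under 0.05, where the share of all genes was 8.08%. The median difference over the 30 was 0.02 on the log2 scale, against 0.01 over all genes, with 17 higher and 13 lower in aldosterone hearts. Leaving aside the 5 saturated genes, differences lay between -0.29 and 0.27 with SEs of 0.06 to 0.47, and 15 of 25 were within 0.1 of no difference. In none of the 25 did the values of the groups separate, where the share over all genes was 2.1%.

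The 2 genes with a limma unadjusted p under 0.05, neither of them called, were the phosphofructokinase Pfkp and the PFKFB gene Pfkfb2. The other phosphofructokinases had lower means in aldosterone hearts, Pfkl by -0.20 (SE 0.14) and Pfkm by -0.05 (SE 0.11). Pfkp had log2 ratios of -0.52, -0.49, -0.34 and -0.43 in aldosterone hearts, against -0.94, -0.60, -0.46, -0.83 and -0.72 in untreated hearts. Aldosterone hearts 3 and 5 lay above the highest untreated heart, untreated heart 3, and aldosterone hearts 1 and 2 just below it. The difference was 0.27 (SE 0.09, limma unadjusted p = 0.016, adjusted p = 0.67), a 1.20-fold level. The second Pfkp probe differed by 0.07 (SE 0.08), so the shift was seen with 1 of 2 probes. Within slides the first probe differed by 0.25, -0.03, 0.49 and 0.29, and within sets of hearts by 0.36 in set 1 and 0.15 in set 2. In the value table of 10 hearts Pfkp differed by 0.27 (limma adjusted p = 0.41).

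Pfkfb2, the heart form of the enzyme that makes and removes fructose 2,6-bisphosphate, had ratios of 2.13, 2.39, 2.20 and 2.02 in aldosterone hearts, against 1.63, 2.20, 1.89, 2.00 and 1.95 in untreated hearts. Untreated heart 2 lay inside the aldosterone range and the other 4 below it. The difference was 0.25 (SE 0.11, limma unadjusted p = 0.045, adjusted p = 0.80). It was positive on each slide, at 0.22, 0.49, 0.20 and 0.07, and in both sets, at 0.27 in set 1 and 0.18 in set 2. In the value table it was 0.30 (adjusted p = 0.57). Pfkfb3, the inducible member of the family, had 2 probes that both gave a lower mean in aldosterone hearts, -0.29 (SE 0.36) and -0.10 (SE 0.08), neither past the unadjusted threshold. Pfkfb1, described with the sets of hearts, differed by 0.25 with an SE of 0.47.

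Among glycogen genes, Ugp2, which makes the UDP-glucose that glycogen synthase uses, had ratios of 1.34, 1.42, 1.59 and 1.46 in aldosterone hearts, against 1.05, 1.17, 1.63, 1.38 and 1.08 in untreated hearts. Untreated heart 3 was the highest of all 9. The difference was 0.19 (SE 0.12, limma adjusted p = 0.94), and that of its second probe 0.21 (SE 0.09, unadjusted p = 0.039). Gys1, the muscle glycogen synthase, averaged 1.44 ± 0.06 in aldosterone hearts and 1.31 ± 0.17 in untreated hearts. Pygm, the muscle phosphorylase that releases glucose from glycogen, averaged 1.64 ± 0.07 in aldosterone hearts and 1.73 ± 0.11 in untreated hearts. The branching enzyme Gbe1 averaged 1.01 ± 0.07 in aldosterone hearts and 0.98 ± 0.12 in untreated hearts. None of these 3 passed the unadjusted threshold.

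No gene of lower glycolysis passed the unadjusted threshold. Pkm, the pyruvate kinase of muscle, averaged 0.91 ± 0.05 in aldosterone hearts and 1.02 ± 0.10 in untreated hearts, a difference of -0.11 (SE 0.06, limma adjusted p = 0.91). Pgk1, which makes the first ATP of the path, differed by 0.03 (SE 0.08), Pgam1 by 0.10 (SE 0.14) and Pgam2 by 0.03 (SE 0.09). In upper glycolysis, Gpi1, which turns glucose 6-phosphate into fructose 6-phosphate, differed by -0.13 (SE 0.08), and its other probes by -0.05 and 0.00. Tpi1, triose phosphate isomerase, differed by -0.02 (SE 0.11).

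For Gapdh, often taken as a loading control, 3 of 7 probes were saturated on all 9 arrays. Its 2 probes with no saturated array differed by 0.03 (SE 0.12) and -0.05 (SE 0.09) between aldosterone and untreated hearts. Ldha, the lactate dehydrogenase subunit that favours lactate formation, had 2 probes of 3 below saturation, which differed by -0.02 (SE 0.11) and -0.01 (SE 0.13). No fold is given for Aldoa, Eno3 and Ldhb, whose single probe was saturated in both groups. At the mitochondrial gate, Pdha1, the catalytic alpha subunit of pyruvate dehydrogenase, differed by 0.08 (SE 0.15). Its kinases Pdk1 and Pdk2 differed by 0.04 (SE 0.06) and -0.07 (SE 0.08).

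**Figure D2:**
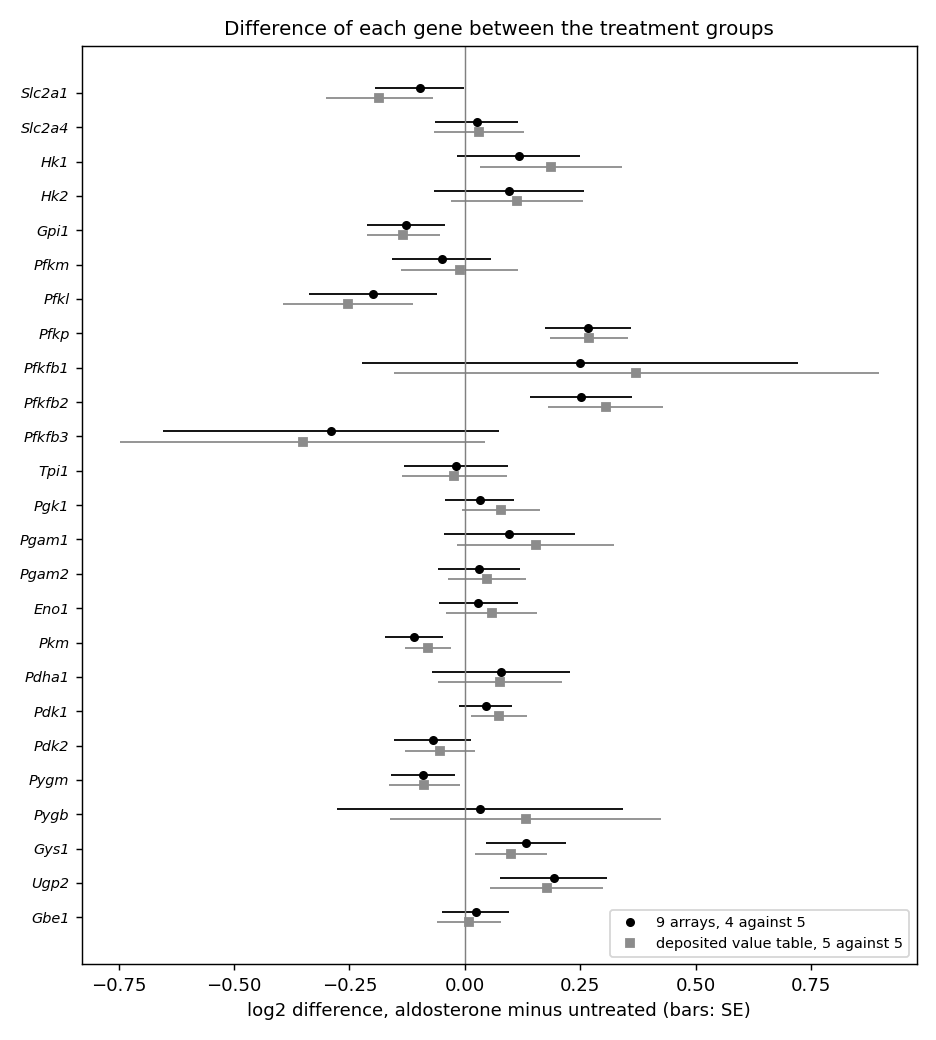
Log2 difference, aldosterone minus untreated, of the 25 genes whose probe was not saturated on all arrays, with bars of 1 SE, from 9 arrays (black circles) and from the deposited value table of 10 hearts (grey squares). Points lie between -0.29 and 0.27 in the 9 arrays. Pfkfb1, Pfkfb3 and Pygb carry wide bars, with SEs of 0.47, 0.36 and 0.31 in the 9 arrays.

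A further 79 genes of glucose use were listed (other transporters, isozymes, the pyruvate dehydrogenase complex, glycogen regulators, side branches and regulators), of which 74 were tested. None was called, and 8 of the 74 had an unadjusted p under 0.05, where the share over all genes was 6.2%. The 6 with the smallest p-values are given here. Pdhb, the beta subunit of pyruvate dehydrogenase, had ratios of 2.58, 2.81, 2.51 and 2.42 in aldosterone hearts, against 1.81, 2.53, 2.32, 1.83 and 1.78 in untreated hearts, a difference of 0.53 (SE 0.16, limma adjusted p = 0.53). Untreated hearts 1, 4 and 5 were low, and hearts 2 and 3 close to or inside the aldosterone range. Txnip, an inhibitor of glucose uptake, differed by -0.60 (SE 0.22), with ratios of -0.39, 0.62, -0.50 and 0.35 in aldosterone hearts, against 0.31 to 0.87 in untreated hearts. Stbd1, a protein that ties glycogen to membranes, differed by 1.26 (SE 0.54). Untreated hearts 1 and 5 had Stbd1 ratios of -2.61 and -2.84, while the other 3 untreated hearts lay between -0.74 and -0.24 and the aldosterone hearts between -0.66 and 0.15. Nhlrc1, which encodes the ubiquitin ligase malin of glycogen turnover, differed by 0.30 (SE 0.11), Tbc1d1, which holds back GLUT4 vesicles, by 0.20 (SE 0.08) and Bpgm, which makes 2,3-bisphosphoglycerate and is abundant in red blood cells, by 0.32 (SE 0.14). The mean of 4 red blood cell markers, Alas2 and Hbb-b2 among them, of which Hba-a1 was saturated on 8 arrays and Hbb-b2 on 1, lay between -2.39 and -1.92 in aldosterone hearts and between -3.36 and -2.46 in untreated hearts, with no overlap. Alas2, with no saturated array, lay between -2.50 and -2.12 in aldosterone hearts and between -3.92 and -2.63 in untreated hearts. Its groups did not overlap, where the share over all genes was 2.1%. Slc4a1, also with no saturated array, lay between -4.94 and -4.51 in aldosterone hearts and between -5.16 and -4.88 in untreated hearts, with overlap. The part of these markers in the Bpgm value was not tested. The mean of 8 fibroblast markers lay between 0.44 and 1.03 in aldosterone hearts and between 0.07 and 0.78 in untreated hearts. In RNA of whole ventricle, a change in the number of cells of a type and a change of RNA per cell cannot be told apart.

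The sets of hearts, in contrast to the treatment groups, did separate on genes of the pathway. Set 1 and set 2 did not overlap for 9 of the 30 genes, or 30%, where 11.6% of all genes had sets that did not overlap in the 9 arrays. Because the sets were drawn from expression values of these same hearts, the differences are described and not tested. Of the 9, 6 were lower in set 1 (Pfkfb1, Pygb, Hk2, Pgam1, Pdha1 and Hk1) and 3 were higher (Pfkl, Tpi1 and Slc2a1), against 6.25% and 5.37% of all genes. In the value table of 10 hearts, 8 of 30 (26.7%) did not overlap, where 11.8% of all genes did not, and these were the same genes without Tpi1, with 6 lower in set 1, against 4.81% of all genes, and 2 higher, against 6.98%. Aldosterone heart 4, known from the value table only, was counted in set 2 there, so it had to lie with set 2 for each of the 8. For Tpi1 its ratio was 1.09, inside the set 1 range of 0.97 to 1.22. With median centring in place of loess, Hk1, Pdha1, Pgam1 and Tpi1 overlapped and 6 of 30 genes (20%) stood apart, where 10.2% of all genes did. Ldha, by its saturated probe, was among the 6.

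Pfkfb1 showed the widest gap. It encodes the liver and skeletal muscle forms of the bifunctional enzyme. In set 1 its ratios were 0.10 and -0.40 in aldosterone hearts 3 and 5 and -0.15, -0.53 and 0.35 in untreated hearts 1, 3 and 4. In set 2 they were 1.49 and 1.49 in aldosterone hearts 1 and 2 and 1.18 and 1.24 in untreated hearts 2 and 5. The sets thus stood apart in both treatment groups, with no heart between 0.35 and 1.18. The difference, set 1 minus set 2, was -1.48, a 2.78-fold higher level in set 2, and 3.00-fold in the value table. The 2 skeletal muscle markers tested, of 8 listed, had a mean of -0.33 to 0.07 in set 1 and -0.07 to 0.24 in set 2. Singly, Tnni2 differed by -0.63 and Tnnt3 by -0.03, set 1 minus set 2, both with sets that overlapped. The probes of the other 6 were well above background on at most 3 arrays and were not tested.

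Pygb, the brain form of glycogen phosphorylase, which heart also expresses, had 0.78 and 0.73 in the aldosterone hearts and 0.91, 0.63 and 0.92 in the untreated hearts of set 1. In set 2 it had 1.84 and 1.66 in aldosterone hearts and 1.81 and 1.82 in untreated hearts. The difference was -0.99, and set 2 stood 1.98-fold higher. Its SD was 0.58 among aldosterone hearts and 0.56 among untreated hearts, and 0.12 and 0.09 within sets 1 and 2. A smaller spread within the sets follows from picking a gene whose sets do not overlap, and is no check of the split. Pygm, the muscle form, differed between the sets by 0.05 with overlap, so the separation was seen for 1 of the 2 phosphorylases among the 30 genes.

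Hexokinase 2 (Hk2) had 1.98 and 1.93 in aldosterone hearts and 1.77, 1.94 and 2.05 in untreated hearts of set 1, against 2.41 and 2.51 in aldosterone hearts and 2.38 and 2.42 in untreated hearts of set 2. The difference was -0.50, or 1.41-fold higher in set 2. Hk1 differed by -0.36 with the probe used, and its second probe differed by -0.18 with sets that overlapped. Pgam1 had -1.20 and -1.36 in aldosterone hearts and -1.42, -1.44 and -1.41 in untreated hearts of set 1, against -1.04 and -0.90 in aldosterone hearts and -0.87 and -0.97 in untreated hearts of set 2, a difference of -0.42. Pdha1 differed by -0.39, with 1.84 to 2.26 in set 1 and 2.32 to 2.61 in set 2.

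The genes that ran the other way included a further phosphofructokinase. Pfkl had 1.02 and 0.91 in aldosterone hearts and 1.09, 1.08 and 0.94 in untreated hearts of set 1, against 0.49 and 0.42 in aldosterone hearts and 0.70 and 0.73 in untreated hearts of set 2. It stood 1.34-fold higher in set 1, while Pfkm was 0.26 lower there on the log2 scale with sets that overlapped. Tpi1 was higher in set 1 by 0.31, with 0.79 to 0.97 in set 1 and 0.48 to 0.68 in set 2, and its second probe also separated the sets, by 0.14. Slc2a1 was higher in set 1 by 0.23, and Slc2a4 differed by -0.18 with overlap. One Ldha probe below saturation separated the sets, 0.33 higher in set 1, and the other did not, at 0.20. With probes that were saturated on any array left out, 10 of 27 genes (37.0%) separated, Ldha being the addition, where 11.8% of all genes did.

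**Figure D3:**
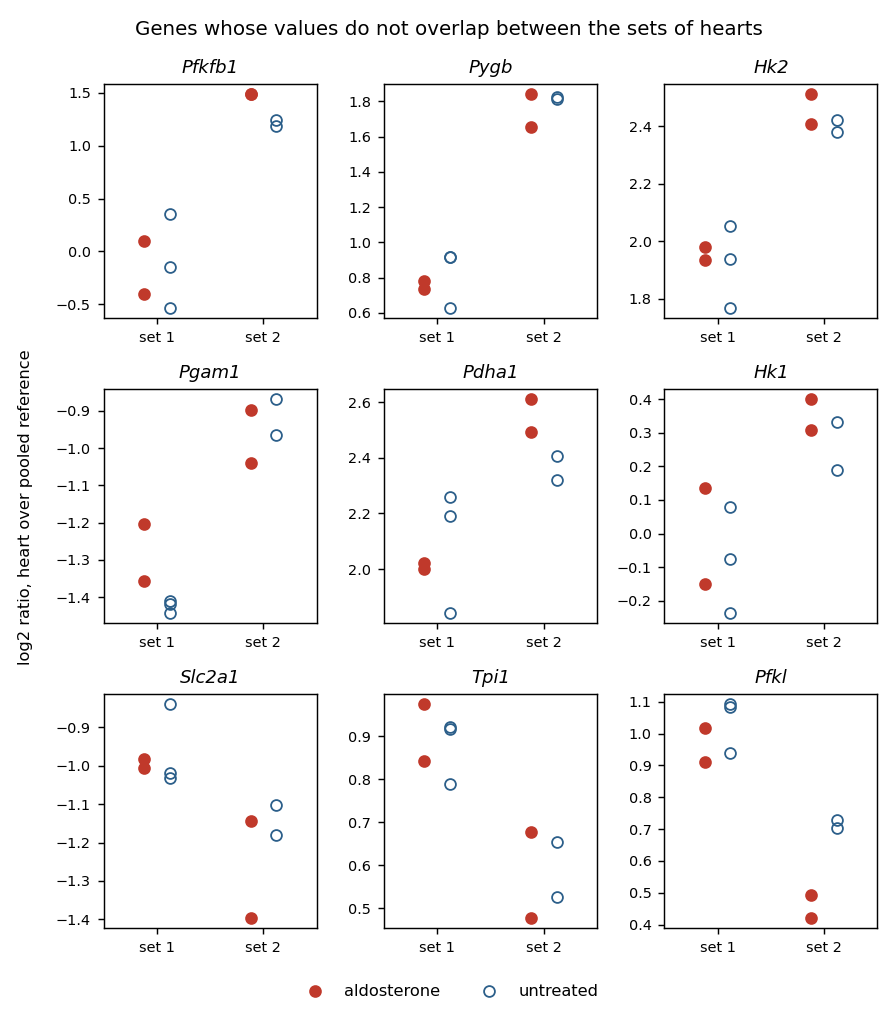
Log2 ratio of heart over pooled reference in set 1 and set 2 for the 9 genes whose sets do not overlap on 9 arrays, 1 point per heart, filled red for aldosterone and open blue for untreated, each panel with its own scale. Both treatment groups lie on the same side within each set, from Pfkfb1 (-1.48) at the top left to Pfkl (0.42) at the bottom right.

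Of the 4 slides, 3 held hearts of both sets, and on each of them all 9 genes differed in the same direction as over all arrays. This had to be so, since the 9 were picked for sets that do not overlap, and it is no check of the split. Pfkfb1 differed by -1.49, -2.02 and -1.64 within these slides, and Pygb by -0.91, -1.03 and -1.09. Pfkl differed by 0.49, 0.66 and 0.18. Within these slides the set 1 heart was untreated on slides 1 and 2 and aldosterone-treated on slide 4. With the set as a term in the fit, Pygb differed between aldosterone and untreated hearts by -0.07 (SE 0.07) in place of 0.03 (SE 0.31), and Pfkfb1 by 0.10 (SE 0.16). That fit called 0 of the 30 genes by limma with Benjamini-Hochberg adjustment (smallest adjusted p = 0.48), where 0.0363% of all genes were called. Pfkl joined Pfkp and Pfkfb2 below an unadjusted p of 0.05, at -0.16 (SE 0.06), where 8.39% of all genes were. Pfkl is among the 9 genes that separate the sets, and its SE without the set term was 0.14. Since the sets were drawn from expression values of these same hearts, SEs and p-values with the set as a term are descriptive only. This holds for both the 9 arrays and the value table. In the value table with the set as a term, 0 of 30 were called (0.0545% of all genes), and the same 3 had an unadjusted p under 0.05 (10.2% of all genes).

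**Figure D4:**
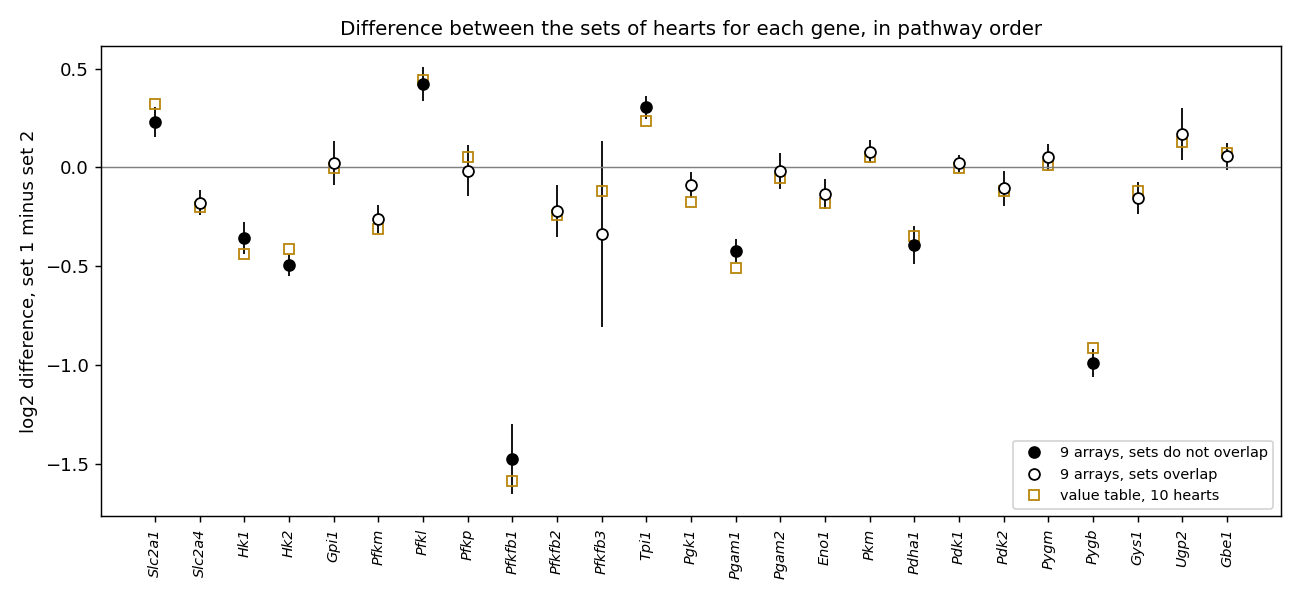
Log2 difference, set 1 minus set 2, for the 25 genes whose probe was not saturated on all arrays, from transporters to glycogen enzymes. Circles are the 9 arrays, filled where the sets do not overlap, with bars of 1 SE from the SDs within the sets, and open squares the value table of 10 hearts. Pfkfb1 and Pygb lie lowest and Pfkl highest, and Pfkfb3 has the widest bar.

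Among the 74 other genes tested, the sets did not overlap for 16, with 8 lower in set 1, where the share over all genes was 6.25%, and 8 higher, where it was 5.37%. The 6 with the largest gaps began with Ppargc1a, which encodes PGC-1alpha, a coactivator of mitochondrial genes. It had 0.21 and 0.10 in aldosterone hearts and 0.10, 0.09 and 0.29 in untreated hearts of set 1, against 1.13 and 1.16 in aldosterone hearts and 0.92 and 1.05 in untreated hearts of set 2. Every heart of set 1 lay below every heart of set 2, by -0.91 on average. Pdp1, the phosphatase that switches pyruvate dehydrogenase on, differed by -0.62.

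The other 4 were higher in set 1. Gyg, the glycogenin that primes glycogen, was higher by 0.48, with 2.17 to 2.26 in set 1 and 1.63 to 1.82 in set 2. Gpd1, the cytosolic glycerol 3-phosphate dehydrogenase, was higher by 0.42 and Phkg1, the muscle catalytic subunit of phosphorylase kinase, by 0.41. Slc16a3, the lactate exporter MCT4, was higher by 0.51 on the 9 arrays, and its sets overlapped in the value table. Of the 8 other genes of the pyruvate dehydrogenase complex and its regulators, 3 separated on the 9 arrays, where 11.6% of all genes did, and these 3 were lower in set 1. In the value table of 10 hearts 4 of the 8 separated, where 11.8% of all genes did, those 3 and the kinase Pdk3, which was higher in set 1 by 0.82. Chosen after their values were seen, the other two besides Pdp1 were the core subunits Dlat (-0.34) and Dld (-0.38), beside Pdha1 among the 30. The 3 genes of side branches that separated, Taldo1, Gfpt1 and Gpd1, were all higher in set 1, again named after their values were seen for the first pair.

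**Figure D5:**
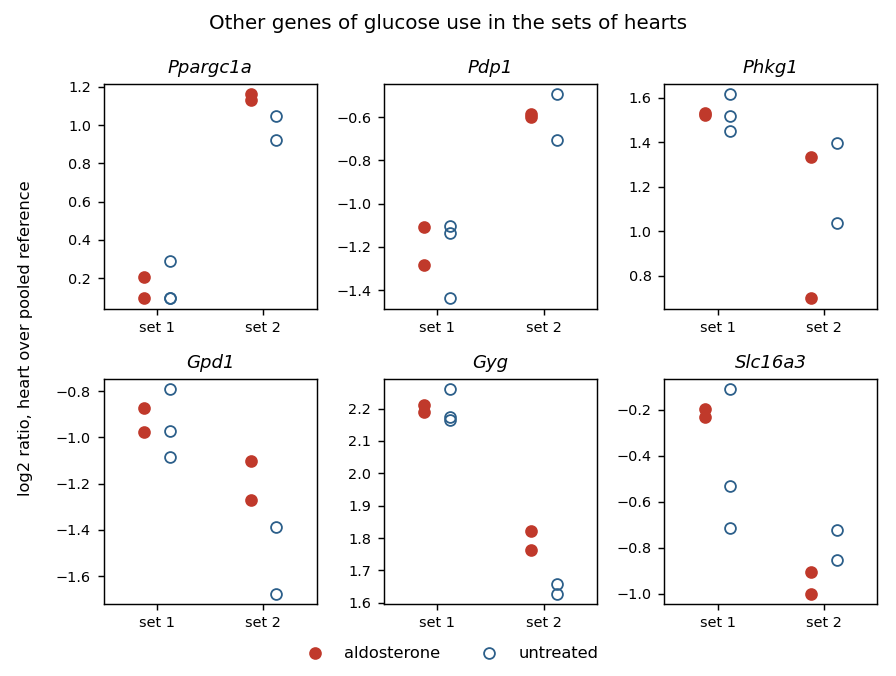
Log2 ratio of heart over pooled reference in set 1 and set 2 for the 6 other genes of glucose use with the largest gaps between sets that do not overlap, 1 point per heart, filled red for aldosterone and open blue for untreated. Ppargc1a (-0.91) and Pdp1 (-0.62) are lower in set 1, and the other 4 are higher there.

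Markers of some cell types moved with the sets. Of the 10 lists of markers, only that of monocytes and macrophages had means that did not overlap between the sets. Singly, 2 of 10 cardiomyocyte markers and 1 of 5 atrial markers separated the sets, where 11.6% of all genes did. No tested marker of the other lists did so. Of the cardiomyocyte markers, the only 2 with no saturated array both separated the sets: Ryr2, the calcium release channel, differed by -1.02 and Pln, the calcium pump regulator phospholamban, by -0.70, both lower in set 1. The 8 others were saturated on 5 to 9 arrays and are not compared. The mean of 4 monocyte and macrophage markers lay between -1.93 and -1.47 in set 1 and between -1.42 and -1.09 in set 2, with no overlap, and none of the 4 separated the sets singly. Of the 5 atrial markers only Myl4 separated the sets, 0.50 higher in set 1, at ratios of -4.29 to -3.99 there and -4.83 to -4.32 in set 2. Myl7, Sln, Nppa and Bmp10 differed by -0.21, -0.06, -0.37 and 0.00, each with overlap. The mean of the 5 atrial markers also overlapped, at -3.04 to -2.73 in set 1 and -3.03 to -2.60 in set 2. The part of these markers in the glucose genes was not tested.

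Promoter sequence is shown for genes at both ends of the split, as the 250 bases before the annotated start in RefSeq's GRCm38.p6 assembly, 5′ to 3′ on the gene's strand. For Pfkfb1 (chrX:150589666-150589915, plus strand) it is the 1 of 4 annotated starts whose window holds AAGGTCA. The others are Pygb (chr2:150786546-150786795, plus), Hk2 (chr6:82774455-82774704, minus), Pfkl (chr10:78009808-78010057, minus) and Slc2a1 (chr4:119108495-119108744, plus). Capitals mark any match to a motif searched, on either strand.
Pfkfb1: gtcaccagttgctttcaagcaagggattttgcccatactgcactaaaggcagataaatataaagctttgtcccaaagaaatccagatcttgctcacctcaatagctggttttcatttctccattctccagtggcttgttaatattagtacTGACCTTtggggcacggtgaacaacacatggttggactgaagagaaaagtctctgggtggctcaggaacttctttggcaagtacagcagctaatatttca
Pygb: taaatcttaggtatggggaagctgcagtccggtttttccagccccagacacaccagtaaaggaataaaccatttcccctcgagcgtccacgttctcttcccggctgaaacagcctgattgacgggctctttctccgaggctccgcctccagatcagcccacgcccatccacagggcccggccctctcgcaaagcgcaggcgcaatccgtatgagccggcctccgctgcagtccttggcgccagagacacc
Hk2: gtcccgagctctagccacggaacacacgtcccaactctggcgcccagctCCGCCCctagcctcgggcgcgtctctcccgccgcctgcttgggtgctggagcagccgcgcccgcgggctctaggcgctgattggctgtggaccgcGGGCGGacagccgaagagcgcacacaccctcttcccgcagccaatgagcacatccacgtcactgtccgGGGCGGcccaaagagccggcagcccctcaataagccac
Pfkl: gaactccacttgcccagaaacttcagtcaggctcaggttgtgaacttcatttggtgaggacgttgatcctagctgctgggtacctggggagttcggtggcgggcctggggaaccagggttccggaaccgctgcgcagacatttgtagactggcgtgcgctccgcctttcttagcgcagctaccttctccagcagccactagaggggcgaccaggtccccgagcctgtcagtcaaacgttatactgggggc
Slc2a1: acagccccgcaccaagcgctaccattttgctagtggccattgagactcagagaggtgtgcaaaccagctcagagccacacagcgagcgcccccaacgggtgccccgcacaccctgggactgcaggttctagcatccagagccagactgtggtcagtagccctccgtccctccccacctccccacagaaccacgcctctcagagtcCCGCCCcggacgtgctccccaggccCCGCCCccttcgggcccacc

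The motifs searched were the E-box CACGTG, the half-site AAGGTCA bound by estrogen-related receptors, the half-site AGAACA bound by corticosteroid receptors and the GC box GGGCGG, and none of them contains another. In these 5 windows the matches were 1 AAGGTCA upstream of Pfkfb1, 3 GC boxes upstream of Hk2 and 2 upstream of Slc2a1, and those of Pygb and Pfkl held no match. The Pfkfb1 window was picked for its AAGGTCA, so that match was fixed by the choice and is no result. Which Pfkfb1 transcript the probe reads could not be checked, so the start shown may not be the one measured. Windows were at hand for 29 of the 30 genes, 48 in all since several genes have more than 1 start. Of the 48, 5 held CACGTG, against 6.02% of 32851 windows of all genes. AAGGTCA was in 2 of 48, against 4.08% of all windows, AGAACA in 9, against 16.1%, and GGGCGG in 20, against 32.7%. Slc2a4 was not in the table.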

How the data were processed

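Scanner files of 9 arrays, as deposited, give an intensity per spot for Cy5 (heart) and Cy3 (pool) and, per the file headers, a log10 ratio. The submitters' processing notes name Agilent Feature Extraction 10.7.3.1 as the software. The authors' deposited value table holds the log2 ratio, matching the scanner's ratio with slopes of 1.00, and column medians between -0.01 and 0.12. Median signals were corrected with normexp (offset 50) after local backgrounds over 20 units from the array's median were replaced by it, then normalised by loess (R 4.3.3, limma 3.58.1). Control spots and 1667 outlier spots were left out. Probes well above background on at least 4 arrays were kept (26877), and each gene was taken by its probe of highest mean signal. Accessions were named through RefSeq GRCm38.p6, which named 26581 of 39429 probes. Aldosterone and untreated hearts were compared with lmFit and eBayes, two-sided, adjusted over all genes at 0.05, and the code was tested on simulated data. The number of arrays limits the precision. All 30 genes are named in the text. Of the other genes, the text names the 6 of smallest p and the 6 of largest gap between sets, and 5 more (Dlat, Dld, Taldo1, Gfpt1 and Pdk3) chosen after their values were seen. The genes, the lists and the sets of hearts were chosen with earlier results of these data known. Slide, replicate number and set as terms, other corrections, scalings and filters, and leaving out each heart were tried.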

Additional observations from a re-analysis of the deposited data

Results flagged for a closer look

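In 50 groups of hearts (25 genes, aldosterone and untreated) 1 heart stood far from the rest of its group in 3, where chance gives about 1 in 20. Gpi1 was 0.088 in aldosterone heart 1, and the other 3 aldosterone hearts lay between 0.41 and 0.46. This Gpi1 probe was saturated on 1 array, and its other 2 probes put aldosterone heart 1 at 0.22, against 0.34 to 0.48, and at 0.32, against 0.34 to 0.49 in the other 3. Pgam2 was 1.74 in aldosterone heart 1, and the other 3 lay between 1.95 and 1.98. Pgam2 was also 1.60 in untreated heart 1, where the other 4 untreated hearts lay between 1.91 and 1.98. Aldosterone heart 1 and untreated heart 1 were on the same slide, as was untreated heart 2, whose Pgam2 ratio was 1.94.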

How the results depend on the processing

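None of the 30 genes was called under any alternative run, and the median over them, 0.02 as given, ranged from -0.01 to 0.04. Sets that do not overlap numbered 6 of 30 with median centring, 8 to 10 (the 10 of 27 genes) under the other corrections, scalings, filters and sources, and 9 to 13 with 1 heart left out, the 13 without aldosterone heart 1, where 15.5% of all genes separated. Of 747 differences of single genes under the alternatives, 746 lay within the spread between hearts, 66 turned sign, and 1, for Gapdh with the Cy5 channel alone, moved to -0.12. Over all genes, 0 were called (1365 at an unadjusted p under 0.05 by limma), against 11 with Agilent's processed signals, 6 with Cy5 alone, 8 with the set as a term, 37 in the value table of 10 hearts, 12 there with the set as a term, and 13 in the value table of the 9 arrays, the last pair being added after seeing the data. The cause was not tested. Leaving out 1 heart gave 0 to 11 calls, with 1 without aldosterone heart 1, and 7, 2 and 11 without untreated hearts 3, 4 and 5. With the replicate number as a block 2 genes were called, none of the 30. Same-numbered hearts 1, 2, 3 and 5 had correlations of 0.06, 0.34, 0.35 and -0.34. Those numbered 2 and 3 were of the same set, and those numbered 1 and 5 of different sets. The correlations therefore cannot show whether the numbers pair the hearts. Aquantile leaves each ratio as it is by construction. Saturation of 5 genes and few arrays set the limits.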

Other observations

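Pfkfb3, the inducible form of the bifunctional enzyme, had the largest SD among untreated hearts of the 25 genes that were not saturated, 0.85 against 0.79 for Pfkfb1. Its ratios were -1.09, -0.82, -0.52 and -0.56 in aldosterone hearts, against -1.16, 0.78, -0.11, -1.34 and -0.46 in untreated hearts. Untreated heart 2 was the highest and untreated hearts 1 and 4 the lowest. Aldosterone minus untreated was 0.33 in set 1 and -1.11 in set 2, and this contrast between the sets was not tested. The second Pfkfb3 probe, well above background on 7 of 9 arrays, ranged from -0.08 to 0.32 over untreated hearts.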
